A study of Mus musculus with 4 samples.

Results

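The Hmox1-high macrophages described here were the macrophages of MC38 tumors with the highest share of transcripts on Hmox1, Gpnmb and Adm. Macrophages were taken as cells with at least 500 detected genes, at most 10% of unique molecular identifiers (UMIs, single captured transcripts) on mitochondrial genes, at least 1 Csf1r UMI, at least 0.2% of UMIs on the complement genes C1qa, C1qb and C1qc, at most 2 Cd3 UMIs and at most 1 UMI of Ncr1 and Klrb1c. Of the 14139 macrophages in 4 libraries, the top 10% by the summed share of the 3 genes were kept, which gave 1414 cells of 28290 cell barcodes in all. The class was thus chosen by measured values, and every gene of these cells depends on that choice, so the contrast with other macrophages is a description without a test.

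CD45+ cells were sorted from subcutaneous MC38 tumors, a transplanted mouse colon carcinoma, of humanized CTLA-4 mice (B-hCTLA-4), which carry the human form of this T cell checkpoint receptor. According to the sample records, all 4 groups bore MC38 tumors, were treated 3 times from a tumor size of about 100 mm3 and were sampled on day 8, with 11 mice pooled into 1 library per group. The isotype control received hIgG1 at 10 mg/kg, and the combination received the anti-human CTLA-4 antibody ipilimumab at 10 mg/kg with the anti-mouse FcγRII antibody AT130-2 mIgG1-N297A at 20 mg/kg, an antibody against the inhibitory Fc receptor with a mutated Fc part. The 2 libraries of single antibodies carry titles and treatment entries that contradict each other about which antibody was given, so they are called by their titles, anti-CTLA-4 and anti-FcγRII, and which of them received ipilimumab is not settled here. The article that describes the experiment gives other tumor numbers, days, tumor sizes and doses than the sample records. With 1 library per group, treatment and library cannot be told apart, no test between groups was possible, and the 95% intervals below cover counting error only. The libraries held 178178393, 129151823, 142472286 and 196362818 UMIs in the order isotype control, anti-CTLA-4, anti-FcγRII and combination.

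Hmox1 encodes heme oxygenase 1, which breaks heme down to iron, carbon monoxide and biliverdin and is switched on by heme, oxidative stress and the transcription factor NRF2. Gpnmb encodes a glycoprotein of lysosomes and the cell surface found in lipid-laden and phagocytic macrophages, Adm encodes adrenomedullin, a vasodilating peptide induced by low oxygen, and Mmp13 encodes a collagenase. Macrophages of solid tumors take up dying cells and often lie far from vessels, and heme handling, antioxidant defence, lipid storage, lysosomal breakdown and the response to low oxygen are known parts of their biology.

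The marker genes lie on different chromosomes of GRCm38: Hmox1 at chr8:75093621-75100589, Gpnmb at chr6:49036546-49070929, Adm at chr7:110627661-110629820 and Mmp13 at chr9:7272514-7283331, all on the forward strand. Of these 4 genes, 3 (Gpnmb, Adm and Mmp13) matched the RefSeq promoter table (GRCm38.p6), and Hmox1 was not searched here. The 3 sequences were searched over the 250 bases before the start, on both strands, for letters known from factors of the low oxygen response (ACGTG), of lysosomal genes (CACGTG, which contains ACGTG), of NRF2 (TGACNNNGC) and of AP-1 (TGANTCA). Adm, the low oxygen gene of the score, and Mmp13, the marker gene outside the score, each held 1 match and are shown with the matching letters in capitals.
Adm, chr7:110627407-110627656, forward strand: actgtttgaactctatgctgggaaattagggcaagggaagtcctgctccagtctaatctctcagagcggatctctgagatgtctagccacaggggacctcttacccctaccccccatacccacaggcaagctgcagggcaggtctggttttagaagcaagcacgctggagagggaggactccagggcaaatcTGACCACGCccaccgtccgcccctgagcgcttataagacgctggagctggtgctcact
Mmp13, chr9:7272264-7272513, forward strand: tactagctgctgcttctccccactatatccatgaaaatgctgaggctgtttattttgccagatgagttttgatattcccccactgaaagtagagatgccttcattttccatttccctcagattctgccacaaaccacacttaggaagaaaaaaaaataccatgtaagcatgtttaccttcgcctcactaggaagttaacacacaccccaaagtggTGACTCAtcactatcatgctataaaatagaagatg
The match in Adm was TGACCACGC, which 10.2% of 32851 promoter windows of this length also held in the form TGACNNNGC, and the match in Mmp13 was TGACTCA, a form of TGANTCA found in 6.75% of windows. ACGTG and CACGTG, found in 16.6% and 6.02% of windows, matched none of the 3, and the window of Gpnmb held no match to any of the 4. These matches describe letters and not bound sites.

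Hmox1 dominated the score. It supplied 94.4% of the score's UMIs in the chosen cells, Gpnmb 4.33% and Adm 1.32%. A UMI of Hmox1 was present in all 1414 cells (100%) and in 89.9% of other macrophages, so that its level rather than its presence set the cells apart, with a median of 128.5 UMIs per cell against 6. Gpnmb was detected in 39.0% of the chosen cells and 12.3% of others, and Adm in 39.5% and 5.85%. The label of Gpnmb stress macrophages therefore covers 552 of the 1414 cells by detection of the gene, and they are called Hmox1-high macrophages here.

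The threshold lay at 0.362% of a cell's UMIs on the 3 genes, within a continuous range. The nearest cell inside had 0.362669% and the nearest outside 0.362426%, and 146 chosen and 134 other macrophages lay within 10% of the threshold. The median was 0.657% in Hmox1-high macrophages, with a highest value of 6.88%, and 0.0290% in other macrophages. The class is a range of a score, not a separate population.

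Throughout, 4 values in a row are given in the order isotype control, library titled anti-CTLA-4, library titled anti-FcγRII and combination. A level is the UMIs of a gene summed over the cells of a class in a library, scaled to 1000000 UMIs of those cells (CPM). Hmox1 stood at 8326, 9778, 9936 and 7319.7 CPM in Hmox1-high macrophages and 491, 547, 567 and 693 CPM in other macrophages. Gpnmb stood at 345, 381, 417 and 426 against 36.5, 38.6, 38.1 and 49.4 CPM, and Adm at 152, 192, 109 and 64.1 against 10.04, 12.1, 8.06 and 6.95 CPM. These differences follow from the choice of cells, and the order of the libraries within the chosen cells also depends on it. Adm in Hmox1-high macrophages was lowest in the combination and highest in the library titled anti-CTLA-4, and Gpnmb differed little between libraries. The macrophage genes of the definition stayed high, with Csf1r, the receptor for the macrophage growth factor CSF1, at 1293, 1093, 1116 and 992 CPM against 1605, 1476, 1525 and 1272 CPM and C1qa at 5921, 6374, 5975 and 5006 against 6810.2, 7573, 7150.0 and 6809 CPM. Both were lower than in other macrophages of every library.

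The median UMI count of Hmox1-high macrophages was 16022, 20604, 19575 and 25237 per cell, against 17651, 21643, 21057 and 23985 in other macrophages, and lay below the others except in the combination. Median detected genes were 4231, 4585, 4661 and 5250.0 against 4912, 5280.0, 5264 and 5434, and median mitochondrial shares 0.641, 0.684, 0.815 and 0.461% against 0.792, 0.880, 1.04 and 0.558%, so the Hmox1-high macrophages had fewer genes and less mitochondrial RNA in every library. No whole barcode occurred in 2 libraries, but the first 16 bases, which mark the droplet, occurred in another library for 34.1% of Hmox1-high macrophages and 33.4% of other macrophages. The count of lower genes with these cells left out is given with the processing.

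Hmox1-high macrophages made up 8.29, 11.2, 8.26 and 13% of macrophages, or 317 of 3825, 353 of 3146, 329 of 3985 and 415 of 3183 cells. The 95% exact binomial intervals were 7.43 to 9.21%, 10.1 to 12.4%, 7.42 to 9.15% and 11.9 to 14.3%. The combination and the library titled anti-CTLA-4 were thus high and the other 2 libraries low, with intervals that did not overlap between these pairs. As ratios, the combination stood to isotype control at 1.57 (95% interval 1.37 to 1.81), to the library titled anti-FcγRII at 1.58 (1.38 to 1.81) and to that titled anti-CTLA-4 at 1.16 (1.02 to 1.33). The spread between mice of a group is not known, so these intervals do not say whether the groups differ.

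The order rested on the gene and the denominator used. Over all kept cells, Hmox1-high macrophages were 3.89, 5.55, 5.41 and 5.46%, and the combination was level with the library titled anti-CTLA-4 (ratio 0.985, 0.858 to 1.13) and that titled anti-FcγRII (1.01, 0.877 to 1.16). Macrophages made up 46.9, 49.4, 65.5 and 41.9% of kept cells. By Adm alone, of which any UMI placed a macrophage in the top class, the combination instead stood below, with a ratio of 0.872 to isotype control (0.745 to 1.02) and of 0.609 to the library titled anti-CTLA-4 (0.524 to 0.709). With every macrophage drawn down to 8807 UMIs, leaving out 540, 282, 354 and 237 shallower cells, the shares were 7.78, 11.3, 8.44 and 13.9% in the mean of 100 draws.

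**Figure D1:**
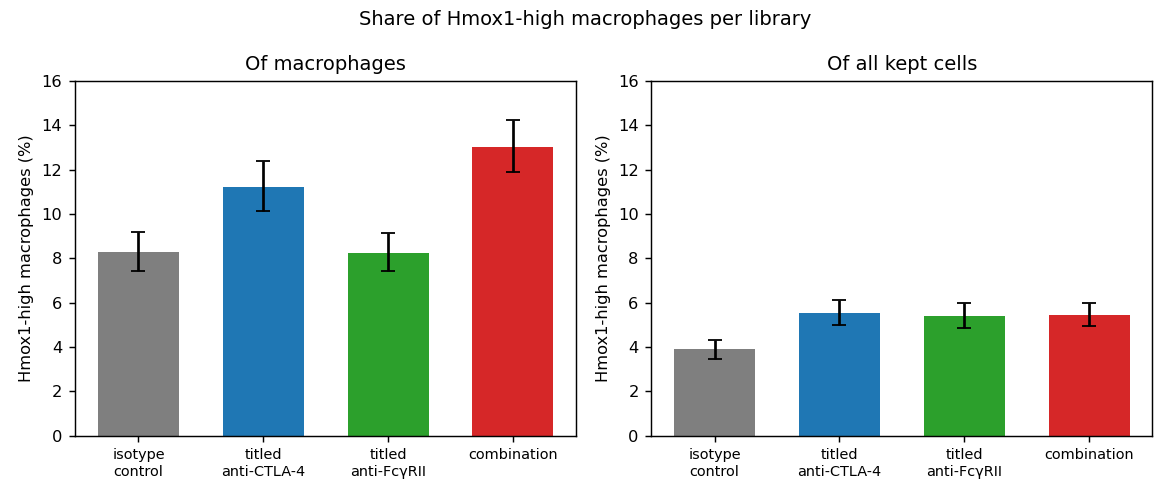
Share of Hmox1-high macrophages among macrophages (left) and among all kept cells (right), in percent, 1 bar per library. Error bars are 95% exact binomial intervals, which cover counting error only, and the combination is highest of macrophages at 13.04% but level with both single antibodies of kept cells at 5.46%.

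Genes were compared with other macrophages of the same library, and a gene was counted as higher or lower where it differed at least 2-fold in all 4 libraries and reached 20 CPM in every library on its higher side. Of 7020 genes tested, 113 were higher in Hmox1-high macrophages (1.61% of those tested) and 41 lower (0.584%). The median gene stood at a log2 ratio of -0.22, that is, slightly lower in Hmox1-high macrophages, and with scaling by the median of ratios, which removes this shift, 197 genes were higher and 8 lower. The 3 genes of the score were among the 113. Leaving out the genes of the rule, the 12 highest genes, ranked by the lowest of their 4 ratios, were Gdf15, Fabp4, Igf2bp2, Hspb1, Mmp12, Mt2, Hyal1, Rhov, Atp6v0d2, Hilpda, Rassf8 and Plk2. The 12 lowest were Klrb1b, Cyp51, Neurl1b, Kcnj10, Fgd2, Ppfia4, Ccr2, Tmem176a, Tmem176b, Rnase6, Pimreg and Grap2.

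**Figure D2:**
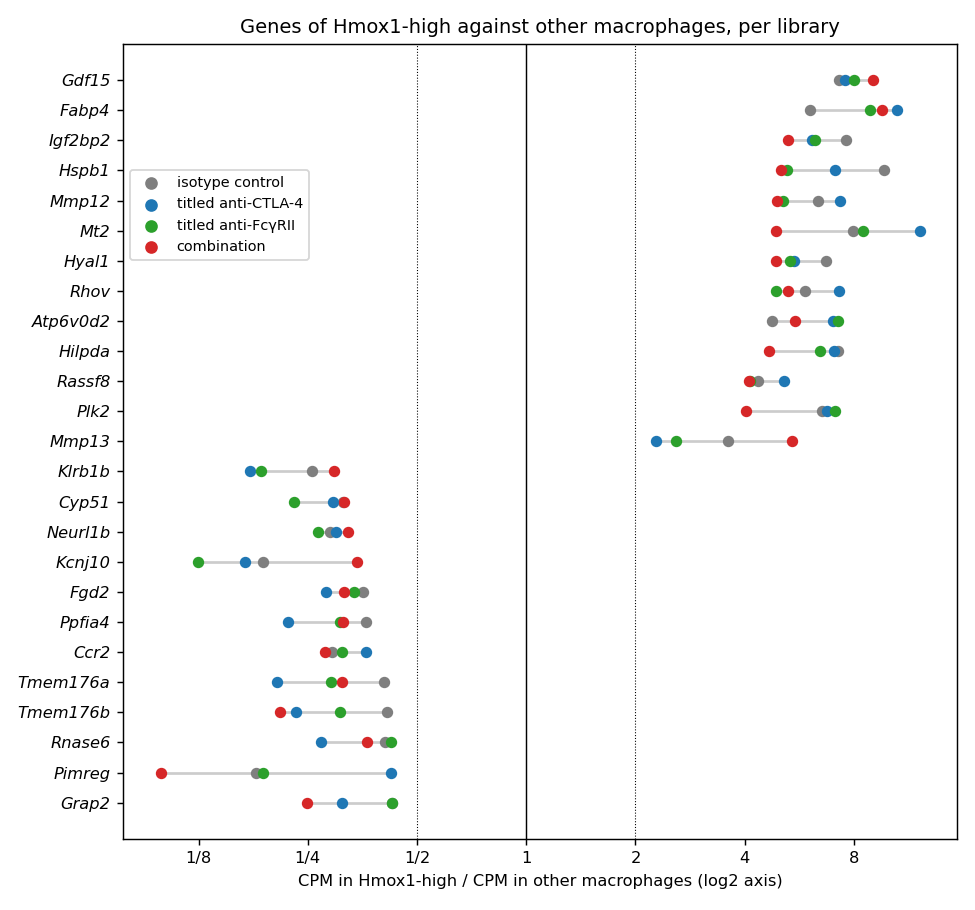
Ratio of CPM in Hmox1-high to other macrophages for the 12 highest and 12 lowest genes and Mmp13, 1 point per library on a log2 axis, with the 2-fold limits dotted. All points of a gene lie on one side, and the highest genes reach 12.1-fold for Mt2.

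Fth1 and Slc48a1 were the genes of heme and iron handling that passed the rule. Of 20 listed genes of heme and iron handling besides Hmox1, 12 were tested, 2 were higher and none lower. A ratio above 1 in all 4 libraries was found for 8. Among all genes tested, 1.61% were higher and 17.1% had such a ratio. Fth1, the heavy chain of the iron store ferritin, stood at 16614, 18141, 20239 and 29754 CPM against 6835, 7611, 8099 and 13482 CPM, or 2.21- to 2.50-fold higher. Its lowest level in Hmox1-high macrophages lay above the highest in other macrophages. Slc48a1, which carries heme out of lysosomes, stood at 319, 383, 369.7 and 637 against 125, 143, 133 and 206 CPM, with no overlap. Slc40a1 encodes ferroportin, the exporter of iron from cells. It stood at 28.8, 52.6, 64 and 14 against 2.06, 2.91, 2.17 and 4.01 CPM, 3.48 to 29.4 times as high, and did not count among the genes tested because its level in the combination lay under 20 CPM. Blvrb, biliverdin reductase B, was 1.35- to 1.83-fold higher, below the 2-fold rule.

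Antioxidant genes were higher in part. Of 22 listed NRF2 targets and antioxidant genes in the files, 18 were tested and 5 were higher, where 1.61% of all genes tested were. The median log2 ratio was 0.56. In all 4 libraries 11 were above 1 and 4 below 1, against 17.1% and 60.4% of all genes tested. Gclm, a subunit of the enzyme that starts glutathione synthesis, stood at 268, 256, 360.2 and 374 CPM against 51.3, 51.6, 68.6 and 106 CPM, 3.53- to 5.25-fold higher. Srxn1, which repairs peroxiredoxins, was 3.53- to 5.31-fold higher. Slc7a11, the cystine importer, stood at 68.3, 93.3, 76.3 and 285 against 17.7, 20.9, 17.6 and 86.6 CPM. Its level was highest in the combination in both classes, and the other macrophages of the combination lay above the Hmox1-high macrophages of isotype control and of the library titled anti-FcγRII. Prdx1, a peroxiredoxin, stood at 1301, 1299, 1571 and 3095 against 412, 467, 564 and 873 CPM with no overlap, and Sqstm1, an autophagy receptor, was 2.34- to 3.06-fold higher. Txnrd1, a thioredoxin reductase, missed the rule at 1.83- to 2.16-fold, and Nqo1 stayed under 20 CPM at 5.42, 3.03, 8.67 and 7.59 CPM.

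Genes of the response to low oxygen and of glycolysis were higher in part. Of 28 listed in the files besides Adm, 26 were tested, 10 were higher and none lower, with a median log2 ratio of 0.78. In all 4 libraries 25 were above 1. Of all genes tested, 1.61% were higher and 17.1% were above 1 in all 4 libraries. In other macrophages of the top 10% of macrophages by Nos2, the list summed to 13388, 11846, 12641 and 9787 CPM. In Hmox1-high macrophages outside that top 10% it summed to 13442, 13159, 13173 and 9823 CPM. Unlike the counts above, these sums include Adm, a gene of the score. Adm stood at 39.8, 29.0, 24.8 and 15.8 CPM in the former cells and 149, 161, 106 and 79.6 CPM in the latter. In isotype control and the combination, the gap between the sums was smaller than the gap in Adm. Hilpda, an inhibitor of lipid breakdown, stood at 602, 746, 525 and 473 CPM against 83, 106, 81.4 and 101 CPM. Slc2a1, the glucose transporter GLUT1, stood at 1511, 1538, 1323 and 1003 against 383, 391, 373 and 422 CPM, and Vegfa, the growth factor of vessels, at 710.2, 806, 639 and 650.0 against 172, 212, 157 and 249.6 CPM. In none of the 3 did the classes overlap, and in each the ratio was lowest in the combination. Ndrg1, Ero1l, Bnip3, Egln3, P4ha2, Hk2 and Pfkfb3 were the others counted. The glycolytic enzymes Ldha and Pgk1 were higher by less, 1.33- to 1.77-fold and 1.42- to 1.84-fold.

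Of 13 tested genes of the integrated stress response, which slows protein synthesis under stress, Atf3, Ddit4 and Gdf15 were higher and none lower. The median log2 ratio was 0.92, with 9 above 1 and 4 below 1 in all 4 libraries. Of all genes tested, 1.61% were higher, and 17.1% were above 1 and 60.4% below 1 in all 4 libraries. Gdf15, a secreted stress cytokine, stood at 79.4, 126, 72 and 144 CPM against 10.9, 16.7, 8.97 and 16 CPM, with a UMI in 27.4, 31.2, 26.1 and 28% of Hmox1-high macrophages. It led the genes outside the rule, ranked by the lowest of 4 ratios, but stayed undetected in most of the cells. Atf3, a stress transcription factor, stood at 1072, 1309, 887 and 693 against 260.3, 292, 238 and 218 CPM, and the transcription factor Ddit3 was 1.52- to 2.44-fold higher, below the rule in the combination. The zinc-binding metallothioneins Mt1 and Mt2 were both higher among 5 tested genes of their list. Mt2 stood at 1661, 2051, 1888 and 701 against 209, 169, 223 and 144 CPM, lowest in the combination in both classes.

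Of 16 tested genes of heat shock and the unfolded protein response, the chaperone genes Hspa1a, Hspa1b and Hspb1 were higher and none lower. In all 4 libraries 7 were above 1. Among all genes tested, 1.61% were higher and 17.1% were above 1 in all 4 libraries. Hspa1a and Hspa1b are near-identical copies, so the split of counts between them is uncertain. Hspa1a stood at 2348, 1549, 1872 and 241 CPM against 368, 273, 319 and 70.3 CPM. The Hmox1-high macrophages of the combination lay below the other macrophages of isotype control, of the library titled anti-CTLA-4 and of that titled anti-FcγRII. The list summed to 10655, 7998, 9101 and 3566 CPM in Hmox1-high macrophages and 4463, 4387, 4275 and 3804 CPM in others. The Hmox1-high macrophages were thus above the others in 3 libraries, while in the combination the log2 ratio was -0.09 and ranged from -0.21 to 0.27 over the alternatives, with 0.17 after scaling by the median of ratios. Per cell, the median level of the list was 7607, 5614, 6342 and 2739 CPM in Hmox1-high macrophages against 3411, 3660.3, 3463 and 3538 CPM in others, and 73.2, 68, 70.8 and 29.9% of Hmox1-high macrophages lay above the median of others, so that in the combination most cells lay below it.

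Lipid uptake and storage genes were higher in part. Of 22 listed besides Gpnmb, 20 were tested and 5 were higher, where 1.61% of all genes tested were. The median log2 ratio was 0.63. Fabp4 and Fabp5 carry fatty acids in the cytosol. Fabp5 stood at 706, 1046, 941 and 1806 CPM against 209, 246, 227 and 392 CPM, with no overlap. Cd36, a receptor for fatty acids and oxidized lipoproteins, stood at 331, 393, 430.0 and 949 against 64.3, 93.2, 99.6 and 271 CPM, and Plin2, the coat protein of lipid droplets, was 2.97- to 3.55-fold higher. Lgals3, a galectin of phagocytes, stood at 7203, 7966, 7876 and 8556 against 3055, 3131, 3143 and 3852 CPM. Other genes linked to lipid-associated macrophages differed little, with Trem2 at 1.01 to 1.20 and Apoe at 0.869 to 1.16 times the level in other macrophages. Spp1, which encodes osteopontin, was 1.59 to 3.55 times as high and missed the rule in the combination.

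Of 31 tested lysosomal genes, 3 were higher by the 2-fold rule, where 1.61% of all genes tested were. These were the cathepsin gene Ctsl, the proton pump subunit gene Atp6v0d2 and the galactosidase gene Gla. The median log2 ratio of the list was 0.34. In all 4 libraries 23 were above 1 and 4 below 1, against 17.1% and 60.4% of all genes tested. Of 14 tested matrix genes, 4 were higher, among them Mmp13, Mmp12 and Sdc1, with a median log2 ratio of 1.26. Mmp13, which the score did not use, stood at 221, 244, 143 and 514 CPM against 61.5, 107, 55.2 and 95.1 CPM, or 2.28- to 5.41-fold higher, with a UMI in 33.1, 39.1, 29.5 and 47.7% of Hmox1-high macrophages and 15.6, 24, 13 and 23.7% of others. Its levels did not overlap between classes, and the gene was detected in a minority of cells in every library. Other macrophages in the top 10% of macrophages by Nos2 held Mmp13 at 220, 310, 402 and 165 CPM. Hmox1-high macrophages outside that top 10% held it at 215, 240, 126 and 531 CPM. Mmp12, the macrophage elastase, stood at 2491, 2955, 1899.5 and 4028 against 392, 403, 371 and 819.8 CPM, and Sdc1, a cell surface proteoglycan, was 3.75- to 6.66-fold higher. The membrane protease gene Mmp14 showed ratios of 0.970 to 1.07.

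Of the inflammatory list, 17 genes were tested, with Nos2 and Ccl4 higher and Il1b lower. Among all genes tested, 1.61% were higher and 0.584% lower. Nos2, the inducible nitric oxide synthase, stood at 216, 592, 157 and 2116 CPM against 84.3, 169, 53.2 and 667 CPM. It was 2.57- to 3.51-fold higher within each library, yet the other macrophages of the combination lay above the Hmox1-high macrophages of all 3 other libraries. Il1b, which encodes interleukin 1 beta, stood at 119, 179, 126 and 294 against 333, 361, 286 and 592 CPM, and the classes overlapped between libraries. Of 9 tested growth factor genes, 3 were higher, Vegfa, the growth factor gene Igf1, at 2.04- to 3.50-fold, and Il1rn, the natural antagonist of the interleukin 1 receptor. No gene of the interferon-stimulated (20 tested), resident-like (13), complement (9 besides C1q) or Fcγ receptor (7) lists passed the rule. Fcgr2b, which encodes FcγRII, the target of the second antibody, stood at 1295, 1280.2, 1295 and 1095 against 1232, 1204, 1205 and 1105 CPM, and all libraries and both classes lay close together.

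The lower genes included the monocyte receptor gene Ccr2, the lectin receptor gene Klrb1b and the sterol synthesis gene Cyp51. Ccr2, the receptor that brings monocytes into tissue, stood at 201, 158, 160.4 and 68.8 CPM against 688, 436, 517 and 247 CPM, and the 2 classes did not overlap. Klrb1b, an inhibitory C-type lectin receptor, stood at 22.7, 21.3, 9.49 and 31.5 against 88.6, 123, 51 and 107 CPM, and Cyp51, an enzyme of cholesterol synthesis, at 16.8, 11.8, 10.7 and 8.78 against 53.8, 39.98, 46.7 and 27.8 CPM. Of 16 tested cell cycle genes, 15 were below 1 in all 4 libraries, where 60.4% of all genes tested were, but none passed the 2-fold rule in each library. Mki67, the proliferation marker, stood at 111, 165, 77.4 and 48.3 against 265, 226, 276 and 197 CPM, with the smallest difference in the library titled anti-CTLA-4. Without that library 11 of the list were lower by the rule in the other 3, where 140 of 7049 genes tested (1.99%) were.

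MHC class II genes, whose products present antigen to CD4+ T cells, differed by library. The list used also holds the regulator gene Ciita and the costimulatory genes Cd80, Cd86 and Cd40. The 12 listed genes summed to 9661, 11067, 4272 and 32916 CPM in Hmox1-high macrophages and 25589, 30994, 14305 and 31268 CPM in other macrophages, ratios of 0.378, 0.357, 0.299 and 1.05. In 3 libraries Hmox1-high macrophages held well under the level of the others, and in the combination they were close to it. H2-Ab1, a beta chain, stood at 1277, 1553, 584 and 5343 against 3938, 4798, 2159.9 and 4957 CPM, and Ciita, the master regulator of the group, at 35, 25.7, 15.7 and 121 against 174, 189, 89.7 and 176 CPM. No gene of the list was lower by the 2-fold rule in all 4 libraries. With the combination left out 7 were, where 84 of 7176 genes tested (1.17%) were lower. Per cell, the median level of the list was 2530.2, 4501, 815 and 28403 CPM in Hmox1-high macrophages, and 18.6, 16.1, 21 and 47% of them lay above the median of other macrophages of their library. In the combination the log2 ratio of the sums was 0.07 and ranged from -0.20 to 0.33 over the alternatives, so its sign is not settled.

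**Figure D3:**
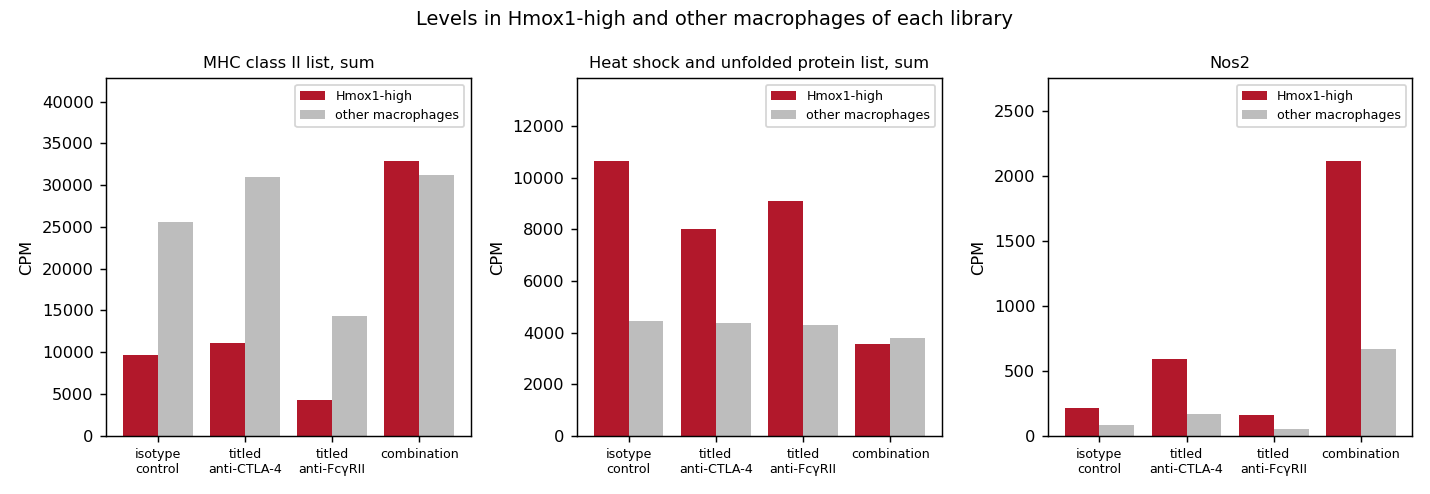
Summed CPM of the MHC class II list (left) and of the heat shock and unfolded protein list (middle), and CPM of Nos2 (right), in Hmox1-high (red) and other macrophages (grey) of each library. MHC class II is lower and heat shock higher in Hmox1-high macrophages in 3 libraries, and both sums lie near those of other macrophages in the combination, where Nos2 is highest at 2116 CPM.

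Several of these genes differed across the range of the score and not at its threshold alone. When all macrophages were split by score into 10 bins of equal size, the mean Hmox1 level over libraries went from 7.38 CPM in bin 1, the lowest, to 2095 CPM in bin 9 and 8839.8 CPM in bin 10. Hilpda went from 17.9 to 344 and 587 CPM, Fabp5 from 47.6 to 778 and 1125 CPM, and Mmp12 from 169 to 1471 and 2843 CPM. Ccr2 went from 759 to 200.0 and 147 CPM, and Klrb1b from 241 to 28 and 21.3 CPM. Bin 9 thus already stood between the low bins and Hmox1-high macrophages for each of these genes. Gclm in bins 1, 9 and 10 stood at 43.8, 131 and 315 CPM. The C1qa level was highest in the middle, at 7478 CPM in bin 5. H2-Ab1 went from 6424 CPM in bin 1 to 1277 CPM in bin 10 in isotype control. In the combination it was 7113 CPM in bin 1, 5219 CPM in bin 2, 4525 CPM in bin 8, its lowest, and 5343 CPM in bin 10, which was above bin 2.

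**Figure D4:**
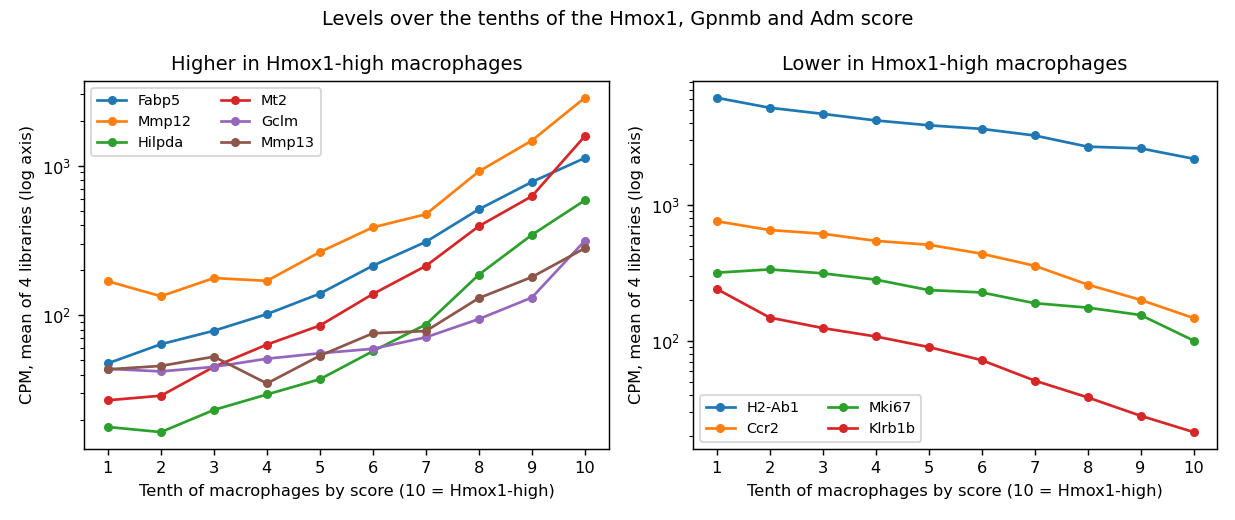
Mean CPM over the 4 libraries (log axis) in each of 10 bins of macrophages by score, for 6 genes higher (left) and 4 genes lower (right) in Hmox1-high macrophages, which form the bin at the right. Klrb1b, for one, goes from 241 to 21.3 CPM.

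The cells varied among themselves in the score genes. Of the 1414, 1320 were in the top 10% of macrophages for Hmox1, 459 for Gpnmb and 559 for Adm, and 655 were in it for 1 gene, 594 for 2 and 165 for all 3. Adm divided the libraries most, with 40.1, 54.1, 38.9 and 27.2% of Hmox1-high macrophages in its top class, while 31.5, 30.03, 31.9 and 35.7% were in that of Gpnmb. Over all 14139 macrophages, which share libraries and depth, Spearman's rho of the UMI shares was 0.30 for Hmox1 with Gpnmb and 0.36 for Hmox1 with Adm. Within Hmox1-high macrophages it was -0.15 and 0.02, where the choice by the sum bears on it.

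Few genes passed the 2-fold rule between cells high in both Hmox1 and Gpnmb and those high in Hmox1 without Gpnmb. The 378 cells in the top class for both were compared with 942 in that for Hmox1 but not Gpnmb. Of 6253 genes tested, 6 were higher (0.096%) and 2 lower (0.032%). Besides Gpnmb the higher ones were Atp6v0d2, at 45, 169, 92.1 and 186 CPM against 15.9, 26, 28.6 and 66 CPM, Igf1, Stra6l, Htr2b and Tnfrsf26. Igf1, which encodes insulin-like growth factor 1, stood at 139.6, 148, 232 and 88.6 against 36, 61.8, 66.2 and 32.9 CPM. The lower ones were Hist1h1b and Pclaf, genes of dividing cells.

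Hmox1-high macrophages overlapped in part with macrophages chosen by other genes. Of them, 392 (27.7% of both classes) were also in the top 10% by Nos2, to which 8.03% of other macrophages belonged. By library, 10.1, 24.4, 6.38 and 61.0% of Hmox1-high macrophages were in this class, against 3.19, 6.16, 1.94 and 24.1% of others. For the top 10% by Folr2 and Cbr2, genes of resident-like macrophages, the overlap was 151 cells (10.7% of both classes), against 9.93% of others. By library it was 10.4, 11.6, 17.6 and 4.58% of Hmox1-high macrophages against 6.27, 8.52, 17.5 and 6.03% of others, higher in isotype control and the library titled anti-CTLA-4, about level in that titled anti-FcγRII and lower in the combination.

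The combination had the highest MHC class II level both in Hmox1-high macrophages of the top 10% by Nos2 and in the rest, which in the combination still held Nos2 at 204 CPM. In the combination, MHC class II stood at 35985 CPM in the 253 Hmox1-high macrophages of the Nos2 class and at 27916 CPM in the other 162. In isotype control the values were 12434 CPM in 32 cells and 9426 CPM in 285. In the library titled anti-CTLA-4 they were 17408 CPM in 86 and 9232 CPM in 267 cells, and in that titled anti-FcγRII 7537 CPM in 21 and 4109.7 CPM in 308. Cells of the Nos2 class held more MHC class II RNA in every library, and the combination was highest in either class.

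The comparison between libraries asked what the combination held that neither single antibody nor the isotype control did. Within Hmox1-high macrophages, 6773 genes were tested, and 163 were at least 2-fold above each other library in the combination (2.41%) and 108 at least 2-fold below (1.59%). In other macrophages, 53 of 7250 were above (0.731%) and 12 below (0.166%), and 38 of the genes above (23.3% of those in Hmox1-high macrophages and 71.7% of those in others) and 9 of those below (8.33% and 75%) were in both lists. The sums rest on 317, 353, 329 and 415 cells of 1 pool each, so these counts compare libraries and not treatments. The median gene stood at a log2 ratio of -0.13 against isotype control.

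The 8 genes highest in the combination against isotype control were Ccl17, Slpi, Ctsk, Pdcd1lg2, Ccl5, Ccl22, Ptges and Inpp5j. Ccl5, a chemokine for T cells, stood at 152, 299, 75.5 and 2259 CPM, with a UMI in 27.1, 38.8, 18.5 and 82.7% of Hmox1-high macrophages. Its level in the combination was 14.9, 7.55 and 29.9 times that in the other libraries, and in other macrophages 4.16, 2.53 and 6.39 times. Pdcd1lg2, which encodes the PD-1 ligand PD-L2, stood at 6.99, 17.6, 2.85 and 105 CPM, and Slpi, a secreted inhibitor of proteases, at 18, 44.3, 30.2 and 274 CPM. Ctsk, a cathepsin that degrades collagen, stood at 2.80, 5.33, 11 and 42.3 CPM, and Ptges, a prostaglandin E synthase, at 4.89, 8.96, 5.83 and 65.6 CPM. The combination was also above each other library in other macrophages for all 5, at 6.08, 7.99 and 11 times for Slpi, 4.23, 2.81 and 11.1 times for Pdcd1lg2, 6.23, 3.18 and 4.75 times for Ptges and 5.73, 4.88 and 3.33 times for Ctsk. The chemokine genes Ccl17 and Ccl22 do not describe the class, since 1 cell of the combination held 97.5% of its Ccl17 UMIs and 75.6% of its Ccl22 UMIs.

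The 8 lowest were Fcrls, Pxdc1, Hspa1a, Hspa1b, Hspb1, Slco2b1, Ighm and Gpr183. Fcrls, an Fc receptor-like gene of resident macrophages and microglia, stood at 1275, 947, 1342 and 107 CPM, with a UMI in 79.2, 78.8, 90.3 and 39.3% of the cells. The combination was 0.0842, 0.113 and 0.0800 times the other libraries, and in other macrophages 0.295, 0.376 and 0.247 times. Gpr183, a receptor for oxysterols, stood at 113, 78.7, 114 and 17 CPM, and Slco2b1, an organic anion transporter, at 29.5, 25.4, 27.9 and 3.41 CPM. For each of the 3 genes the combination lay below the lowest of the other libraries.

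**Figure D5:**
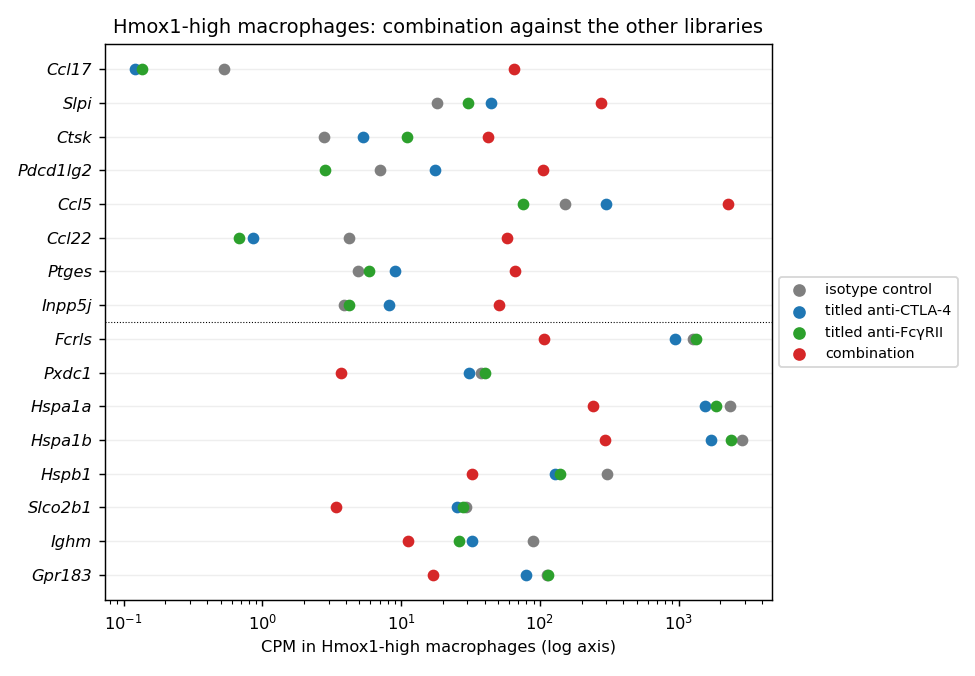
CPM in Hmox1-high macrophages (log axis), 1 point per library, for the 8 genes highest (above the dotted line) and the 8 lowest in the combination against isotype control. The red points of the combination stand apart from the 3 others, as for Fcrls at 107 CPM.

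By list, MHC class II had 5 of 10 tested genes above in the combination (H2-Aa, H2-Ab1, H2-Eb1, Cd74 and Ciita) and none below. The interferon-stimulated list had 7 of 20 above, among them Irf1, Gbp2, Gbp5, Iigp1, Cxcl9 and Ly6a. Of all genes tested in this comparison, 2.41% were above and 1.59% below. The median log2 ratio of the interferon-stimulated list was 0.63 to isotype control, -0.13 to the library titled anti-CTLA-4 and 0.82 to that titled anti-FcγRII. Gbp2, a guanylate-binding protein, stood at 207, 284, 155 and 1037 CPM in Hmox1-high macrophages. It was below the level of other macrophages in each library, at 0.339 to 0.784 times it. Of 20 tested inflammatory genes, Nos2, Ccl5, Cxcl9 and Inhba were above. Matrix genes were above for Mmp13, Mmp8, Mmp19, Timp1 and Sdc1 and below for Plau, of 16 tested. For Timp1, 1 cell held 47.6% of the UMIs in the combination.

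Below in the combination were 6 of 16 heat shock and unfolded protein genes (Hspa1a, Hspa1b, Hsph1, Hsp90aa1, Hspb1 and Hspd1). Both Mt1 and Mt2 were also below, as were 5 of 14 resident-like genes (Mrc1, Cbr2, Gas6, Selenop and F13a1). The shares over all genes tested were 1.59% below and 2.41% above, for this and the following lists. Mrc1, the mannose receptor, stood at 893, 1013, 729 and 296 CPM in Hmox1-high macrophages. Of heme and iron handling, Blvrb was above, at 200.0, 239, 218 and 513 CPM, and Slc40a1 below. Of 26 low oxygen and glycolysis genes, Hif1a was above, at 139.8, 162, 152 and 331 CPM, and none below, and of 18 antioxidant genes Slc7a11, Gsr and Sod2 were above. The complement genes C3 and Cfb, of 9 tested, were above. No Fcγ receptor gene of 7 passed the rule, and Fcgr4, an activating receptor, stood at 315, 389.6, 269 and 640.0 CPM in Hmox1-high macrophages, highest in the combination.

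Markers of other cells were summed in Hmox1-high macrophages, leaving out of each list the genes that the definition of macrophages had used. Dendritic cell markers summed to 35.3, 25.2, 14.1 and 91.1 CPM against 86, 55.3, 33.7 and 70.1 CPM in others, of which Ccl22 gave 58 CPM in the combination, 75.6% of it from 1 cell. The defining genes Xcr1, Flt3 and Zbtb46 stood below 2 CPM in every library. Clec9a, another defining gene, stood at 4.54, 2.06, 0.813 and 18 CPM in Hmox1-high macrophages against 7.5, 13.7, 4.03 and 18.9 CPM in others, with a UMI in 1.89, 2.83, 0.912 and 21% of Hmox1-high macrophages, highest in the combination in both classes. The sum of the list in Hmox1-high macrophages was highest in the combination, as was that of MHC class II. There the Ccl22 UMIs of 1 cell exceeded the gap of the sum to that of other macrophages. The part of dendritic cell markers in the MHC class II level was not tested. Neutrophil markers summed to 127, 288, 154 and 511 CPM against 217, 163, 162 and 394 CPM in other macrophages, led by Csf3r, with Mmp8 counted above in the combination. The T cell list summed to 133, 161, 119 and 226 CPM in Hmox1-high macrophages against 50.9, 53.5, 37.9 and 75 CPM in others, 2.61- to 3.14-fold higher. Of this sum Il7r, the interleukin 7 receptor, gave 122, 156, 114 and 215 CPM against 40.4, 42.1, 32.7 and 63.7 CPM and passed the 2-fold rule in all 4 libraries, while Cd8a lay at 0.350, 0.121, 0 and 0.256 CPM. B cell markers summed to 168, 60.9, 59.2 and 47.7 CPM against 232, 176, 140.2 and 97.7 CPM in others, led by Ighm, and natural killer markers to 11.4, 10.2, 8.27 and 25.7 CPM against 47.9, 45.9, 18.9 and 44.9 CPM in others. The parts of these markers in the differences between classes and libraries were not tested.

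Tumor epithelial markers summed to 45.4, 34.8, 39.6 and 28.3 CPM against 75.7, 70.5, 68.2 and 47.2 CPM in others, led by Cdh1, with Epcam at 0, 0, 0.136 and 0.0852 CPM, and fibroblast markers to 22, 22.4, 24 and 12 CPM, against 19.7, 180.4, 63.8 and 19 CPM in other macrophages. Endothelial markers summed to 132, 147, 105 and 201 CPM against 150.5, 188, 139 and 203 CPM in others, with Tek, Cldn5 and Emcn at 0. Mast cell and basophil markers summed to 1.75, 5.69, 5.01 and 15.9 CPM against 49.5, 4.48, 22.9 and 40.3 CPM in others, with Ms4a2 and Mcpt8 at 0. Of the erythroid markers, Hbb-bs, Hbb-bt, Hba-a1, Alas2 and Slc4a1 were among those with no UMI in the Hmox1-high macrophages. Monocyte markers summed to 1146, 1143, 841 and 1164 CPM against 1742, 1177, 1149.8 and 1358 CPM in others, led by Msrb1, which at 472, 391, 481 and 470.1 CPM against 401, 347, 371 and 403 CPM was higher in Hmox1-high macrophages of each library, below the 2-fold rule. Osteoclast markers summed to 448, 554, 584 and 749 CPM against 489, 489, 544 and 493 CPM in others, led by Acp5, with Ctsk and Dcstamp above in the combination and Calcr at 0. The macrophage list summed to 32135, 29446, 35827 and 29025 CPM, led by Apoe, against 29671, 31949.7, 34954 and 27385 CPM in others.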

How the data were processed

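CD45+ cells of MC38 tumors were profiled by 10x Chromium Flex, a probe-based single-cell RNA assay, in 4 libraries of 1 group each. The deposited matrices hold UMI counts per gene and cell barcode, made by the authors with Cell Ranger (7.2.0 per the file headers, 7.0.0 per the submitters' processing notes) on mm10 and not normalized. The rules for macrophages and for the top 10% by UMI share of Hmox1, Gpnmb and Adm were applied to these counts for 19059 genes. The members and the 30 gene lists were chosen with earlier results of these data known, so neither is independent of them.

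Counts were summed per library and class and scaled to CPM. Genes at 20 CPM or more in every library of 1 class were tested, and a gene was called where it differed at least 2-fold in the same direction in all 4 libraries. For the combination, genes at 20 CPM or more in it or in all 3 other libraries were tested against each other library at 2-fold. No count model was fitted and no p-value computed. Between treatments there was 1 library per group and no residual spread. The classes are paired within the 4 libraries, but they were chosen by measured values, so their contrast was described and not tested. Named genes were the 12 highest and 12 lowest called genes outside the genes of the rule by the least extreme of their 4 ratios, and the 8 highest and 8 lowest of the combination against isotype control, besides listed genes. Where other genes were named for contrast, they were chosen after their values were seen. Shares have exact binomial 95% intervals. Their ratios have approximate 95% intervals by a normal approximation on the log scale. Both cover counting error only. Doublets were not removed in the main result, since Scrublet called 3 of 28290 barcodes, which was taken as a failed call. The alternative left out the 5% highest doublet scores per library. Other alternatives changed the macrophage and class limits, the scaling, the CPM minimum, the fold and the libraries used. Gene positions are from GENCODE M21 (GRCm38). Python 3.11.15, numpy 2.4.6, scipy 1.17.1, pandas 2.3.3, scanpy 1.11.5 and matplotlib 3.10.9 were used. Some members of the lists are not reported here by name.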

Additional observations from a re-analysis of the deposited data

Results flagged for a closer look

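For some lists the summed level in Hmox1-high macrophages, set against other macrophages, lay on the other side of 1 in the combination than in the 3 other libraries. These differences were not tested, and for MHC class II and heat shock the side in the combination changed between alternatives. The ratio of summed levels for MHC class II was 1.05 in the combination and 0.378, 0.357 and 0.299 in isotype control and the libraries titled anti-CTLA-4 and anti-FcγRII. For heat shock and the unfolded protein response it was 0.937, against 2.39, 1.82 and 2.13. For inflammatory cytokines and chemokines it was 1.05, against 0.908, 0.995 and 0.935, all close to 1. For dendritic cell markers it was 1.299, against 0.410, 0.456 and 0.418, and 1 cell of the combination held 75.6% of the UMIs of Ccl22, the most abundant gene of that list.

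Cells outside the macrophages also passed the score threshold. In the combination 330 of 4416 did, or 7.47% (6.71 to 8.29%, exact binomial 95% interval), against 4.09% in isotype control (3.52 to 4.73%), 3.67% in the library titled anti-CTLA-4 and 4.004% in that titled anti-FcγRII. These cells entered no comparison.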

How the results depend on the processing

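Of the alternatives to the shares and to the counts of called genes, 78 kept direction and size, 30 moved and 4 reversed, and the cause was not tested. With the class chosen by Adm alone, the ratio of the combination reversed to 0.872 against isotype control, 0.609 against the library titled anti-CTLA-4 and 0.965 against that titled anti-FcγRII. Genes lower than in other macrophages came to 1, genes above and below in the combination to 81 and 26, and Ccl17 and Ccl22 reversed to log2 ratios of -0.58 and -1.45 against isotype control. By Gpnmb alone the ratio to the library titled anti-FcγRII was 1.37, with 48 genes higher and 10 lower than in other macrophages and 78 above and 31 below in the combination. Over all kept cells the ratio to the library titled anti-CTLA-4 reversed to 0.985 and that to the library titled anti-FcγRII was 1.01.

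Against other macrophages, genes lower numbered 25 with a C1q share of at least 0.5%, 19 with the top 20%, 21 at 50 CPM and 26 without cells that share first barcode bases, an alternative chosen after seeing the data. Scaling by the median of ratios gave 197 higher and 8 lower. Without a CPM minimum 266 were higher and 123 lower, with 322 above and 391 below in the combination. At 3-fold the counts were 34 and 3, and 69 and 22, and at 1.5-fold 273 and 369, and 330 and 418. Leaving out 1 library at a time gave 113 to 200 higher and 47 to 140 lower, with 200 higher and 84 lower without the combination and 140 lower without the library titled anti-CTLA-4. Without the cell holding the most UMIs of each gene, also chosen after seeing the data, the counts were 103 and 54, and 167 and 105. No paired test was run. Each treatment has 1 library. The classes are paired within the 4 libraries, but they were chosen by measured values of the same cells.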

Other observations

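Among the cells outside the macrophages, the share above the score threshold was 8.85% of combination cells with a Csf1r UMI but a C1q share under 0.2% (143 of 1616), against 4.20% in isotype control (68 of 1619). In cells with over 2 Cd3 UMIs, which hold T cells, it was 6.34% in the combination (106 of 1673) and 3.96% in isotype control (69 of 1744). Their median UMI count was 31026 and 27795.5, against 23985 and 17651 in macrophages outside the class. Mixed profiles of T cells and macrophages were not separated from them. These are shares of cells in 1 library each.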
